A study of Mus musculus with 6 samples.

Results

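The NR4A orphan nuclear receptors and a set of immediate early feedback regulators were examined in gastrocnemius muscle of mice after induced deletion of the vitamin D receptor gene Vdr. The set comprised 10 genes, taken by name from a deposited table of 43346 genes: Nr4a1, Nr4a2, Nr4a3, Dusp1, Dusp6, Zfp36, Ier3, Ier5, Btg2 and Nfkbia. All 10 passed the filter on low counts, which left 15583 genes for testing. Polyadenylated RNA was sequenced from 6 male mice aged 6 months, 1 library per mouse. All carried Vdrfl/fl alleles, with loxP sites around exon 3, and an actin iCre transgene, Tg(ACTA1-cre/Esr1*)2Kesr, which expresses a tamoxifen-inducible Cre in skeletal muscle. The VDR knockout group consisted of 3 mice given tamoxifen at 100 mg/kg, and the vehicle group of 3 mice given 10% ethanol in corn oil. Both received 75 microliters intraperitoneally on each of 5 days. They ate the same diet, which held vitamin D3 at 3.4 IU/g and calcium at 0.81%. Muscle was taken after tests of glucose tolerance and strength that were done 10 days after the last injection. Tamoxifen and the deletion cannot be told apart in these 2 groups. Mice with floxed Vdr but no Cre that received tamoxifen were not analysed here.

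Immediate early genes are transcribed within minutes of a stimulus, from transcription machinery already in the cell. The NR4A receptors bind DNA without a known classical ligand; in muscle they are known to be induced by contraction and to act on genes of glucose and fat use. The other members close feedback loops: DUSP1 and DUSP6 dephosphorylate MAP kinases, ZFP36 and BTG2 promote decay of messenger RNA, and NFKBIA holds the transcription factor NF-kappa B in the cytoplasm. IER3 and IER5 are small immediate early proteins tied to survival and stress responses.

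Libraries held 30486874 to 39909535 counted reads. Vdr itself had 52, 27 and 40 reads in the knockout libraries, against 46, 48 and 61 in the vehicle libraries. By edgeR that is a log2 difference of -0.37 with SE 0.37 and adjusted p = 0.848. A whole-gene count sums all exons and includes cells other than muscle fibres, so it is no check of a deletion of exon 3 in fibres. The skeletal muscle markers were all abundant, with a summed level of 89796 to 182937 CPM in knockout and 153491 to 168286 CPM in vehicle libraries. CPM are reads relative to the library total, scaled by edgeR's TMM factors. Knockout replicate 2 stood apart: it had the fewest reads, and its 10 top genes took 15.1% of them, while in the remaining libraries the 10 top genes took 20.8% to 25.2%. Values without it are given where leaving it out moved an estimate of a member or the median of a list by over 1.5 times, and for Nr4a1, Nr4a2, Ier5, Btg2 and the IER and CSRNP list.

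Promoters of the set were compared because cyclic AMP response elements (CREs), bound by CREB family factors, are a known route to NR4A induction. The sequences are the 250 bases before the annotated start, from RefSeq on GRCm38.p6, on the gene's strand. RefSeq promoter windows were matched for all 10 genes by symbol, and motifs were searched on both strands from 250 bases before to 50 bases after the start. Capitals mark each CRE core, CGTCA or its reverse complement, in the first 5 sequences, and the kappa B site in the last. The windows lie at chr15:101266596-101266845 on the plus strand for Nr4a1, chr2:57124004-57124253 on the minus strand for Nr4a2 and chr4:48045055-48045304 on the plus strand for Nr4a3. Those of Dusp1, Btg2 and Nfkbia lie on the minus strand, at chr17:26508473-26508722, chr1:134079156-134079405 and chr12:55492648-55492897. RefSeq starts differ for some genes from the gene boundaries used for counting. The windows of Nr4a3 and Dusp1 run past those boundaries, at 48045153 and 26508519, into the counted gene. Those of Zfp36 and Ier3, whose sequences are not printed, also do so, at 28379255 and 35821684. The Nr4a3 core nearest the RefSeq start lies inside the counted gene.
Nr4a1: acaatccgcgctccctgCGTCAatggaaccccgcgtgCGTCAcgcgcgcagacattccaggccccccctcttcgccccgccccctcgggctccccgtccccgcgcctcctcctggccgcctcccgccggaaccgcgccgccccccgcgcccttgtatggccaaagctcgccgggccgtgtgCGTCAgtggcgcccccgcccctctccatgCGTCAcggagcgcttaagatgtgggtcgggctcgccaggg
Nr4a2: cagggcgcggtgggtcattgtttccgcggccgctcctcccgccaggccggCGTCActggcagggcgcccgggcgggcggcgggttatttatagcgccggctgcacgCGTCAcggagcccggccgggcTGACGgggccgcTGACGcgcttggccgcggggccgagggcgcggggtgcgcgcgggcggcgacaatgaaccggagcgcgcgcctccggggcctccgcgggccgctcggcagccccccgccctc
Nr4a3: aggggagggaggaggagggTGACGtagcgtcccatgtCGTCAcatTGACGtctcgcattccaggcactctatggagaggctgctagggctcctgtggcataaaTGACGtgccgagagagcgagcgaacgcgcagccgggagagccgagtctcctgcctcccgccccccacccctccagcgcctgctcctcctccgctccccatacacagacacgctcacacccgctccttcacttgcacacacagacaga
Dusp1: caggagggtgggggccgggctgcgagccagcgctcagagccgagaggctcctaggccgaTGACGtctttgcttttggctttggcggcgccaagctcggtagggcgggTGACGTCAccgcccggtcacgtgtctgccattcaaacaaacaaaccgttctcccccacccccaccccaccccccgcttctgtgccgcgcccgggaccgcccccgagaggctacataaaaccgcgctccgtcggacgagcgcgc
Btg2: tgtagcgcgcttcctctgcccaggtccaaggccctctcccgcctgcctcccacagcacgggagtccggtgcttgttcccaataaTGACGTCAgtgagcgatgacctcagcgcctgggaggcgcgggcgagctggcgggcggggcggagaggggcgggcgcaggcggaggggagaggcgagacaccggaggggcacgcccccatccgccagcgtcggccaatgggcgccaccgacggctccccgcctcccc
Nfkbia: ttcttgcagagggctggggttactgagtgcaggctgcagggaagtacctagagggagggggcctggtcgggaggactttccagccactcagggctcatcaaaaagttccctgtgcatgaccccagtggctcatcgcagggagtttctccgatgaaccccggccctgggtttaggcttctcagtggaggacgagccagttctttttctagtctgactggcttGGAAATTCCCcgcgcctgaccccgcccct

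Each of the 3 NR4A windows held 4 CRE cores. Dusp1 held 3 and Btg2 held 2, and in both a pair of cores overlapped within a full palindromic CRE, TGACGTCA. At least 4 cores were present in 76 of 32851 promoter windows of all genes (0.231%) and in 69 of 13118 windows of tested genes (0.526%). At least 1 core was present in 20.8% of all windows and 29.7% of windows of tested genes, and a full CRE in 1.79% of all windows and 2.88% of windows of tested genes. Dusp6, Zfp36, Ier3, Ier5 and Nfkbia held no core in this window. A kappa B site was found in Ier3, Nfkbia and Nr4a1, in 8.46% of all windows and in 10.6% of windows of tested genes. The EGR site GCGNGGGCG was found in Nr4a1, Nr4a2, Zfp36 and Btg2, in 5.55% of all windows and in 10.2% of windows of tested genes. Zfp36 also held a CArG box, the element bound by serum response factor, which 1.63% of all windows and 1.36% of windows of tested genes held. No window of the set held the AP-1 site TGANTCA (7.81% of all windows), the NR4A monomer element AAAGGTCA (1.51%) or a DR3 vitamin D response element (0.0396%). In windows of tested genes these shares were 5.31%, 0.991% and 0.0152%, so absence from 10 windows does not set these genes apart. These matches describe letters in the window and are not measured binding.

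**Figure D1:**
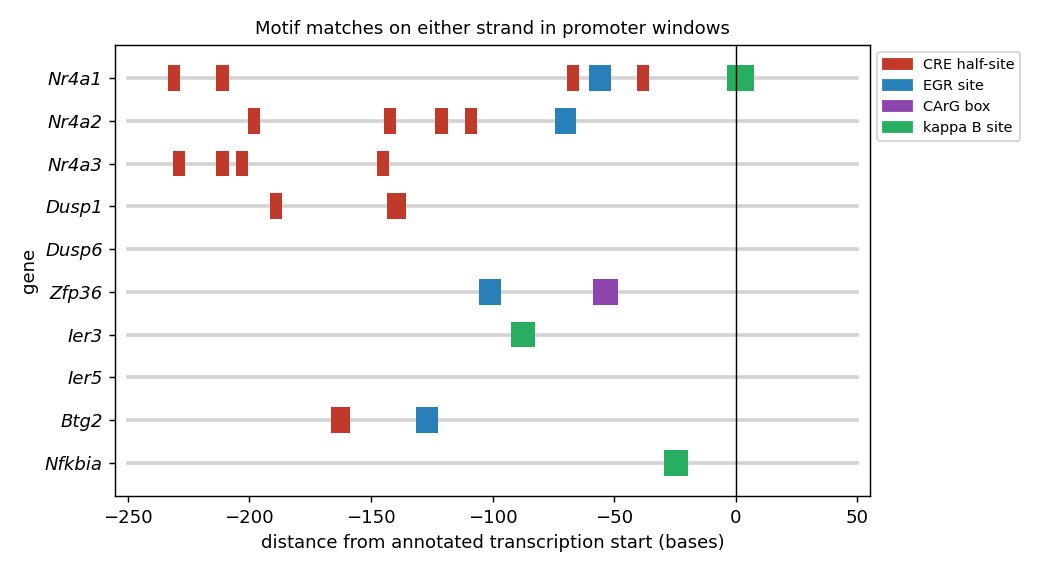
Motif matches on either strand in the promoter windows of the 10 genes, by distance in bases from the annotated transcription start (horizontal axis), 1 row per gene; colours mark CRE cores (labelled CRE half-site), EGR sites, CArG boxes and kappa B sites. The 3 NR4A rows each show 4 CRE cores upstream of the RefSeq start, and the Dusp6 and Ier5 rows show no match.

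Per unit of gene length, Btg2 and Nr4a1 were the most abundant of the set. Deposited FPKM, which scale a gene's reads by its length and by the library total, averaged 446 for Btg2 and 293 for Nr4a1 over the 6 libraries, which ranked 119 and 187 among the 15583 tested genes. Dusp1 (99.01 FPKM), Zfp36 (93.1), Nr4a3 (49.7), Nfkbia (34.4), Nr4a2 (17.4), Ier5 (12.6), Ier3 (8.37) and Dusp6 (3.005) followed. Btg2 exceeded Nr4a1 and Nr4a1 exceeded Dusp1 in 6 of 6 libraries, whereas Dusp1 exceeded Zfp36 in 4 of 6, so the order of that pair was not stable. Nr4a3 exceeded Nfkbia in 5 of 6 libraries, the exception being knockout replicate 2. The ranges of neighbours did not overlap at 3 places in this order: Nr4a1 above Dusp1, Nfkbia above Nr4a2, and Ier3 above Dusp6. Within the NR4A family Nr4a1 was the most abundant, with 78.1%, 90.4% and 85.6% of the summed NR4A FPKM in the knockout libraries and 82.4%, 79.2% and 77.3% in the vehicle libraries. The groups overlapped in that share.

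**Figure D2:**
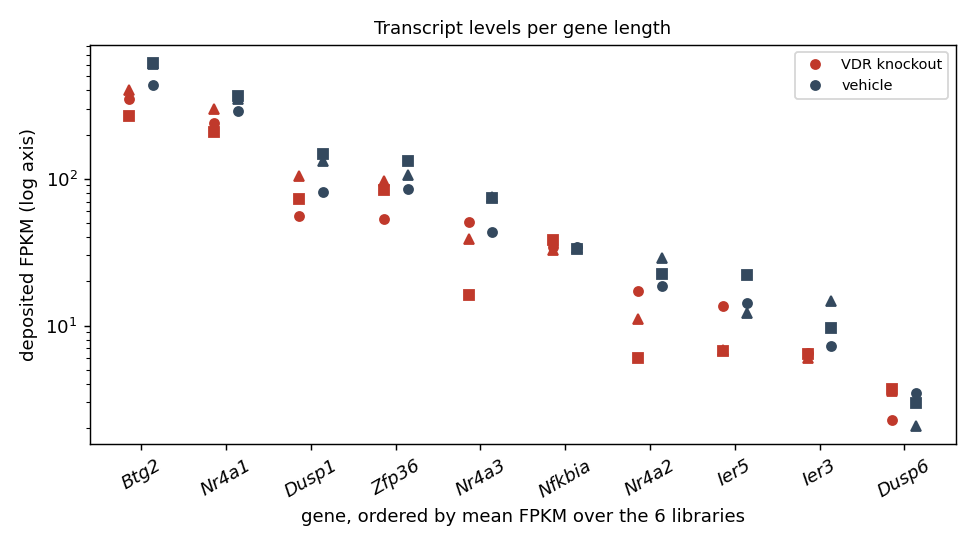
Deposited FPKM (log axis) of each gene in each library, with genes ordered by their mean over the 6 libraries, VDR knockout in red to the left and vehicle in dark blue to the right; circles, squares and triangles are replicates 1, 2 and 3. Mean FPKM runs from 446 for Btg2 to 3.005 for Dusp6.

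The comparison of knockout with vehicle asks whether these genes differ in muscle after Vdr deletion is induced in the adult. Of the 10 genes, 9 had a lower estimate in knockout libraries, 8 of them by between 0.52 and 1.06 on the log2 scale, while Dusp6 and Nfkbia were near 0 and changed sign with the scaling or with single libraries left out. No member passed the test: 0 of 10 had an edgeR adjusted p below 0.05, and percent called over all tested genes was 0. The DESeq2 Wald test called 109 genes, 0 of the 10 among them. The median log2 fold change was -0.75 over the 10 members and 0.02 over all genes, of which 47.1% had a lower estimate. At an unadjusted p below 0.05, 6 of the 10 were lower and 0 higher, where 3.42% of all genes tested were lower and 7.44% passed in either direction. All 3 knockout values lay below all 3 vehicle values in 4 of the 10 (Nr4a1, Nr4a2, Ier3 and Btg2), where 6.48% of all genes did so. The opposite order was seen in 0 of the 10 and in 5.83% of all genes. The 10 genes were chosen with earlier results of these data known, so these shares are a description. The count of 6 became 1 without vehicle replicate 2 and 1 without vehicle replicate 3, where 2.32% and 1.80% of all genes then passed as lower. The count of 4 became 7 without knockout replicate 1 and likewise without vehicle replicate 1. There 14.5% and 12.7% of all genes did not overlap and were lower, since fewer libraries overlap less readily. With library totals in place of TMM scaling the count became 3, as with deposited FPKM, where 4.4% of all genes did so. Nr4a1 was the member lost. Without knockout replicate 2 the median was -0.58. In that setting 4 members passed as lower at an unadjusted edgeR p below 0.05, where 2.43% of all genes passed as lower. There 4 members did not overlap and were lower, where 10.2% of all genes did so. In whole muscle, fewer cells of a type and less RNA per cell cannot be told apart.

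Nr4a1 (Nur77) lies on chromosome 15 from 101266846 to 101274792 in mm10. It had 656, 456 and 692 CPM in the knockout libraries, against 745, 927 and 907 CPM in the vehicle libraries. In CPM every knockout library was below every vehicle library, by the narrow margin of knockout replicate 3 to vehicle replicate 1. The groups overlapped in deposited FPKM, without TMM scaling, with knockout replicate 3 at 298 and vehicle replicate 1 at 290. The means were 601 ± 127 CPM in knockout and 859.7 ± 99.9 CPM in vehicle libraries (SD, n = 3 each), and the edgeR estimate on the log2 scale was -0.52, with SE 0.24, a 95% interval of -1.04 to 0.01 and adjusted p = 0.674. Without knockout replicate 2 it was -0.35.

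Nr4a2 (Nurr1), on chromosome 2 from 57106830 to 57124003, is known mainly for its role in dopaminergic neurons. It had 76.5, 21.4 and 42.5 CPM in knockout libraries, against 78.8, 92.8 and 122 CPM in vehicle libraries. The groups did not overlap, but knockout replicate 1 came within a few CPM of vehicle replicate 1, and knockout libraries spanned a 3.57-fold range. In this comparison edgeR put knockout over vehicle at a log2 ratio of -1.06, with SE 0.41, 95% bounds of -1.99 and -0.13 and adjusted p = 0.645. It was -1.62 without knockout replicate 1 and -0.72 without knockout replicate 2.

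Nr4a3 (Nor-1), on chromosome 4 from 48045153 to 48086447, is strongly induced by exercise in muscle. It had 332, 85.5 and 219.9 CPM in knockout libraries, against 268, 453 and 467 CPM in vehicle libraries. Knockout replicate 1 lay above vehicle replicate 1, so the groups overlapped, and knockout replicate 2 was far below all others. On the log2 scale edgeR estimated -0.90, with SE 0.44, bounds of -1.91 and 0.11 at 95% and adjusted p = 0.693. It was -1.38 without knockout replicate 1 and -0.52 without knockout replicate 2.

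Each of the 3 receptors was lowest in knockout replicate 2, but not by the same amount. The FPKM ratio of Nr4a1 to Nr4a3 was 4.77, 12.9 and 7.62 in knockout libraries, against 6.72, 4.95 and 4.70 in vehicle libraries. The ratio of Nr4a1 to Nr4a2 was 14.1, 34.9 and 26.7 in knockout libraries, against 15.5, 16.4 and 12.2 in vehicle libraries. Knockout replicates 2 and 3 thus had the highest values of both ratios, and knockout replicate 1 lay within the vehicle range. The ratio of Nr4a3 to Nr4a2 stayed between 2.71 and 3.51 in knockout and between 2.31 and 3.31 in vehicle libraries.

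**Figure D3:**
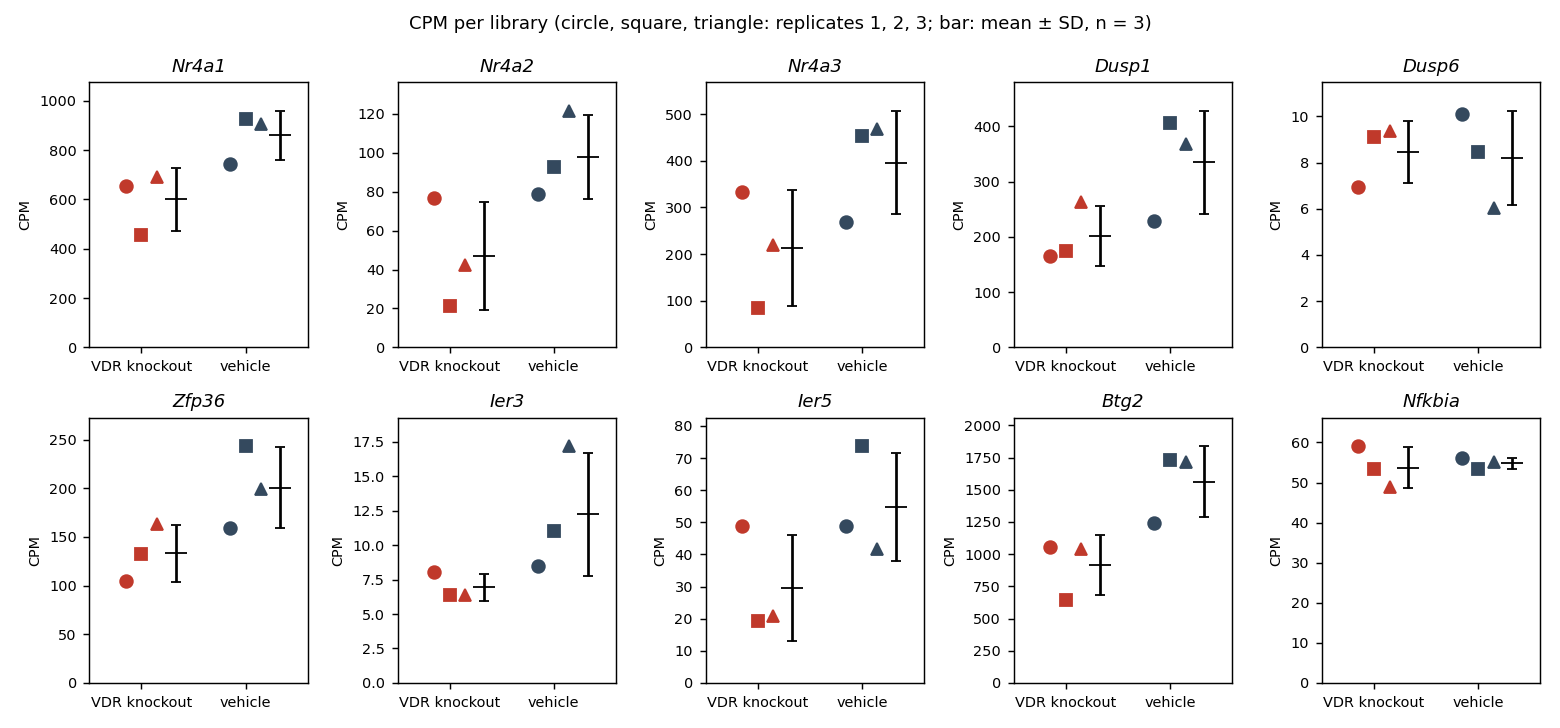
CPM (linear axis from 0, TMM-scaled) of each of the 10 genes in the 3 VDR knockout libraries (red, left) and the 3 vehicle libraries (dark blue, right) of each panel; black bars are mean ± SD, n = 3. The groups do not overlap for Nr4a1, Nr4a2, Ier3 and Btg2, and Dusp6 and Nfkbia overlap throughout.

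Among the phosphatases of MAP kinases, Dusp1 had a lower estimate and Dusp6 one near 0, and the difference between them was not tested. Dusp1, a nuclear phosphatase that acts chiefly on the stress kinases p38 and JNK, lies on chromosome 17 from 26505590 to 26508519. It had 166, 175 and 264 CPM in knockout libraries, against 229, 406 and 369 CPM in vehicle libraries. Knockout replicate 3 lay above vehicle replicate 1 and the other knockout libraries lay below every vehicle library. The edgeR estimate on the log2 scale was -0.73, with SE 0.27, a 95% interval of -1.34 to -0.12 and adjusted p = 0.643. Dusp6, a cytoplasmic phosphatase of ERK, lies on chromosome 10 from 99263231 to 99267488. It had 6.92, 9.12 and 9.35 CPM in knockout libraries, against 10.1, 8.47 and 6.05 CPM in vehicle libraries. The groups overlapped throughout, and edgeR placed the log2 difference at 0.05, with SE 0.24, a 95% interval of -0.50 to 0.59 and adjusted p = 0.978. Leaving out a single library gave estimates between -0.14 and 0.22, with -0.011 without knockout replicate 2.

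Zfp36 (tristetraprolin), whose protein binds AU-rich elements and recruits the deadenylation machinery, lies on chromosome 7 from 28376784 to 28379255. It had 105, 132 and 163 CPM in knockout libraries, against 159, 243 and 199 CPM in vehicle libraries. Knockout replicate 3 lay just above vehicle replicate 1, and the remaining libraries were separate by group. In this comparison edgeR put knockout over vehicle at a log2 ratio of -0.59, with SE 0.23, 95% bounds of -1.10 and -0.08 and adjusted p = 0.645.

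Btg2, an antiproliferative factor that binds the CCR4-NOT deadenylase, lies on chromosome 1 from 134075170 to 134079120. It had 1057, 647 and 1039.5 CPM in knockout libraries, against 1245, 1728 and 1717 CPM in vehicle libraries. No knockout library reached any vehicle library. The means were 914 ± 232 CPM in knockout and 1563 ± 276 CPM in vehicle libraries (SD, n = 3 each). The log2 difference by edgeR was -0.77, with SE 0.27, a 95% interval of -1.38 to -0.16 and adjusted p = 0.633, and it was -0.58 without knockout replicate 2.

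Ier3, a survival factor also known as IEX-1, lies on chromosome 17 from 35821684 to 35822923. It had 8.08, 6.37 and 6.36 CPM in knockout libraries, against 8.49, 11.04 and 17.2 CPM in vehicle libraries. The groups were separate, with the knockout libraries spread over a 1.27-fold range and the vehicle libraries over 2.03-fold. On the log2 scale edgeR estimated -0.82, with SE 0.27, bounds of -1.43 and -0.21 at 95% and adjusted p = 0.628, and the estimate was -0.50 without vehicle replicate 3. Ier5, linked to heat shock factor activity, lies on chromosome 1 from 155096361 to 155099636. It had 48.7, 19.3 and 20.9 CPM in knockout libraries, against 48.8, 73.7 and 41.7 CPM in vehicle libraries. Knockout replicate 1 lay level with vehicle replicate 1, far above the other knockout libraries. The edgeR estimate on the log2 scale was -0.89, with SE 0.37, a 95% interval of -1.74 to -0.03 and adjusted p = 0.664. It was -1.45 without knockout replicate 1 and -0.65 without knockout replicate 2.

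Nfkbia, a direct target of NF-kappa B that ends its own signal, lies on chromosome 12 from 55489411 to 55492647. It had 59.1, 53.4 and 48.8 CPM in knockout libraries, against 56.1, 53.4 and 55.1 CPM in vehicle libraries. The vehicle values lay inside the knockout range, and the spread was the smallest of the set, 1.21-fold among knockout and 1.05-fold among vehicle libraries. In this comparison edgeR put knockout over vehicle at a log2 ratio of -0.03, with SE 0.15, 95% bounds of -0.36 and 0.31 and adjusted p = 0.977. It was 0.062 when scaled by library totals and 0.033 without knockout replicate 3.

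**Figure D4:**
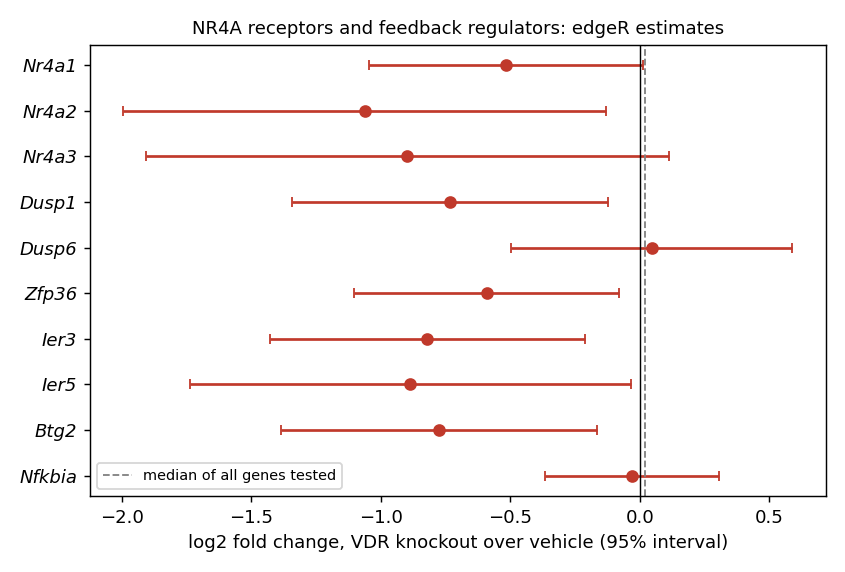
Log2 fold change of VDR knockout over vehicle from edgeR for each of the 10 genes (points) with 95% intervals (bars); the solid line marks 0 and the dashed line the median of all genes tested, 0.02. Intervals of Nr4a2, Dusp1, Zfp36, Ier3, Ier5 and Btg2 lie below 0, and none of the 10 passed after adjustment over all genes.

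Libraries differed in which members were low. Knockout replicate 2 was the lowest library for 5 members (the 3 NR4A receptors, Ier5 and Btg2), and knockout replicate 1 for Dusp1 and Zfp36. Knockout replicate 3 was lowest for Ier3 and Nfkbia, and vehicle replicate 3 for Dusp6. Vehicle replicate 1 was the lowest vehicle library for 7 of the 10, and vehicle replicate 2 was the highest of all libraries for 5. Relative to the mean of the 6 libraries, the NR4A mean on the log2 CPM scale was 0.16, -1.28 and -0.29 in knockout libraries, against 0.13, 0.57 and 0.70 in vehicle libraries. The mean of the 7 feedback regulators was -0.18, -0.43 and -0.20 in knockout libraries, against 0.08, 0.44 and 0.29 in vehicle libraries. In these means knockout replicate 1 was at the level of vehicle replicate 1 in NR4A receptors and below it in feedback regulators. Single genes differed. In knockout replicate 1 against vehicle replicate 1, Nr4a1 was at -0.12 against 0.07, Nr4a2 at 0.28 against 0.33 and Nr4a3 at 0.32 against 0.01. Of the feedback regulators, Ier5 was level (0.362 against 0.365), Nfkbia was higher (0.12 against 0.05) and the rest were lower.

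**Figure D5:**
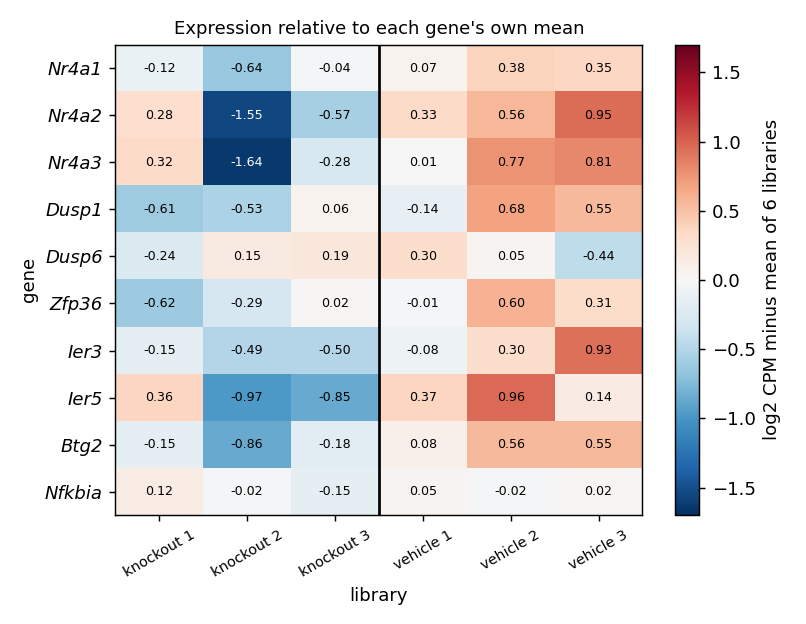
Log2 CPM of each of the 10 genes (rows) in each library (columns, VDR knockout left of vehicle) minus the gene's mean over the 6 libraries; red is above and blue below that mean. The lowest cells are Nr4a3 and Nr4a2 in knockout replicate 2, at -1.64 and -1.55, and the Nfkbia row varies least.

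Cell type markers also differed between the libraries. Slow fibre markers had 8 of 8 higher estimates in knockout, with summed levels of 5209.8, 26868 and 8930.3 CPM in knockout libraries, against 8701, 1243 and 1013 CPM in vehicle libraries. Macrophage markers had 6 of 6 tested higher estimates, with 40.6, 114 and 115 CPM in knockout libraries, against 56.4, 43.7 and 31.3 CPM in vehicle libraries. Fast fibre markers had 7 of 8 lower estimates and summed to 191240.3, 72404 and 132809 CPM in knockout libraries, against 154162, 181789 and 173748 CPM in vehicle libraries. Knockout replicate 2, lowest in the NR4A receptors, was thus highest in slow fibre markers and lowest in fast fibre markers. Fibro-adipogenic progenitor and adipocyte markers each had 6 of 6 higher estimates, summing to 430.3 to 1207 and 256 to 689 CPM in knockout libraries, against 463 to 627 and 222 to 307 CPM in vehicle libraries. Schwann cell markers had 6 of 6 lower estimates, with 65.8 to 106 CPM in knockout and 91.1 to 170.1 CPM in vehicle libraries. Endothelial markers ranged from 298 to 390.0 CPM in knockout and from 279 to 355 CPM in vehicle libraries, and satellite cell markers from 23.7 to 33.3 CPM in knockout and from 23.5 to 28.2 CPM in vehicle libraries. Smooth muscle markers ranged from 519 to 636 CPM in knockout and from 572 to 652 CPM in vehicle libraries. Red blood cell markers ranged from 531 to 3181 CPM in knockout and from 604 to 3603 CPM in vehicle libraries. Lymphocyte markers did not exceed 0.4004 CPM in any library, and Ms4a1 and Ncr1 were at 0 in all. No marker passed the test, and the part of cell content in the results above was not tested.

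Neighbouring genes of the same pathways were described from lists, and 0 genes of any list passed the edgeR threshold in either direction, so up to 3 of smallest p are named for each. Among 14 other MAP kinase feedback regulators tested, 9 had lower and 5 higher estimates, with a median log2 fold change of -0.11, which was -0.0078 without knockout replicate 2, -0.066 without vehicle replicate 1 and -0.015 without vehicle replicate 2. Dusp5, an ERK phosphatase of the nucleus, had 3.61, 2.58 and 2.96 CPM in knockout libraries, against 6.13, 7.62 and 16.3 CPM in vehicle libraries. Its groups were separate, at a log2 fold change of -1.72 (SE 0.37; edgeR adjusted p = 0.408). Dusp7 was at 0.31 (SE 0.20), with all 3 knockout libraries above all 3 vehicle libraries. Spry4, an inhibitor of receptor tyrosine kinase signalling, was at -0.50 (SE 0.38), and its groups overlapped. Of these 14 genes, 1 did not overlap and was lower and 1 was higher, against 6.48% and 5.83% of all genes tested. The 15 MAP kinases and kinase kinases themselves had 12 lower estimates but a median of only -0.07, with Map2k1 at -0.39 (SE 0.19), Map2k2 at -0.27 (SE 0.17) and Map2k4 at -0.20 (SE 0.20). That median was -0.21 without knockout replicate 1, -0.15 without vehicle replicate 1 and -0.021 without knockout replicate 2.

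The NF-kappa B list had 14 of 14 tested members with a lower estimate and a median of -0.29, which was -0.13 without vehicle replicate 2 and -0.44 without vehicle replicate 3. Nfkbie, a paralog of Nfkbia, was at -1.77 (SE 0.57) from levels of 0.116 to 0.641 CPM in knockout and 0.960 to 1.56 CPM in vehicle libraries. Nfkb2 and Relb, the partners of the noncanonical pathway, were at -0.44 (SE 0.19) and -0.72 (SE 0.31). The groups did not overlap in any of these 3, which were named for the smallest p. Across the list 4 of 14 did not overlap and were lower and 0 were higher, against 6.48% and 5.83% of all genes tested. Other messenger RNA decay factors had 9 of 15 lower and a median of -0.10, which was -0.042 without knockout replicate 2 and -0.15 without knockout replicate 3. In that list the BTG2 relatives Btg1 and Tob1 were at -0.53 (SE 0.23) and -0.59 (SE 0.32), and the deadenylase Cnot7 at -0.23 (SE 0.17).

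Among 7 tested AU-rich messages that ZFP36 is known to bind, 7 of 7 had a lower estimate, with a median of -2.15. That median was 0.44 without vehicle replicate 2, and it was -1.01 with limma-voom and -0.59 with limma on log2(FPKM + 1). Cxcl1, a neutrophil-attracting chemokine, had 0.116, 0.781 and 1.92 CPM in knockout libraries, against 0.279, 23.3 and 0.965 CPM in vehicle libraries (log2 fold change -3.11, SE 1.54). Ccl2, which attracts monocytes, was at -3.67 (SE 1.65) and Myc at -1.20 (SE 0.29). Neutrophil markers summed to 5.58, 37.4 and 9.05 CPM in knockout libraries, against 3.22, 35.6 and 4.75 CPM in vehicle libraries, so that vehicle replicate 2 was high in both the chemokine and these markers and knockout replicate 2 in the markers alone. The part of neutrophil content in these values was not tested.

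The list of other IER and CSRNP immediate early genes had 9 of 11 lower estimates and a median of -0.70, or -0.48 without knockout replicate 2. Besides Ier2, Ier5l, Csrnp1 and Csrnp2, the tested genes of this list were Maff, Arc, Sik1, Cebpd, Rgs2, Trib1 and Crem. Crem, which encodes CRE-binding modulators including the feedback repressor ICER, had 21.4, 16.3 and 18.6 CPM in knockout libraries, against 27.9, 24.7 and 40.7 CPM in vehicle libraries. Its groups were separate, with a log2 fold change of -0.73 (SE 0.21; edgeR adjusted p = 0.589). Csrnp1 was at -0.60 (SE 0.20) and Ier2 at -0.79 (SE 0.27), also without overlap. In this list 4 of 11 did not overlap and were lower and 1 was higher, against 6.48% and 5.83% of all genes tested. At an unadjusted edgeR p below 0.05, 6 were lower and 1 higher, where 3.42% of all genes were lower and 7.44% passed in either direction. The AP-1, EGR and Myc factors had 11 of 13 lower estimates and a median of -0.71, which ranged from -1.06 to -0.53 over the alternatives, with Atf3 at -1.53 (SE 0.18; edgeR adjusted p = 0.058), Myc as above and Fosl1 at -2.23 (SE 0.57).

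Upstream activators had 10 of 17 lower estimates and a median of -0.05, which ranged from -0.21 without knockout replicate 1 to 0.052 without knockout replicate 2. The ETS factors Elk4 and Elk3, partners of serum response factor, were at -0.34 (SE 0.16) and 0.45 (SE 0.24). Partners and muscle targets of NR4A had 16 of 23 lower estimates and a median of -0.15, which was -0.37 without knockout replicate 1 and -0.057 without knockout replicate 2. The retinoid receptor Rxrg was at -0.70 (SE 0.25) with no overlap of groups. Of the 23, 1 did not overlap and was lower and 0 were higher, against 6.48% and 5.83% of all genes tested. The fatty acid transporter Cd36 was at 0.94 (SE 0.34). Prkag3, the muscle gamma-3 subunit of AMP-activated protein kinase, was at -1.20 (SE 0.51).

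The genes outside the set whose libraries were most like the NR4A mean were Tollip, Prkag3, Sdccag8, Riok3 and Anapc5. Pearson r was 0.9998, 0.998, 0.998, 0.998 and 0.998 over 6 libraries, the highest 5 among 11427 annotated genes with a mean of at least 1 CPM, leaving out pseudogenes and unnamed gene models. With 6 points and so many genes, high values are found readily, and r is given only to describe the pattern. Prkag3 had 196, 38.7 and 115 CPM in knockout libraries, against 194, 291 and 319 CPM in vehicle libraries, the same order of libraries as the NR4A mean. Tollip, an adaptor of Toll-like receptor signalling, spanned a much smaller range, 57.4, 41.8 and 51.6 CPM in knockout libraries, against 57.2, 62.9 and 64.7 CPM in vehicle libraries.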

How the data were processed

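Gene expression was measured in 3 VDR knockout and 3 vehicle libraries of gastrocnemius, from polyadenylated RNA (TruSeq Stranded mRNA, per the labels' protocols). The authors deposited 1 table with a read count per gene and library. The tools named are bcl2fastq, featureCounts, STAR 2.6.1c and Subread 1.5.1, and the build named is mm10, per the submitters' processing notes. The annotation release is not given in the sources used here, nor is the strand setting. No other gene in the table overlapped a member. In a separate GENCODE annotation, 1 antisense gene overlapped Zfp36 and 4 genes overlapped Dusp1, whose locus there runs to 26562128. The deposited FPKM equalled count over listed length plus 1 base and over the column total in 100% of nonzero values (relative tolerance 1e-06), so they carry no further normalization. In all 37 mitochondrial genes the count was 0.

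Counts were tested in R 4.3.3 with edgeR 4.0.16: filterByExpr (minimum count 10, minimum total 15), TMM factors (0.912 to 1.13) and a robust quasi-likelihood fit of knockout over vehicle, two-sided, Benjamini-Hochberg adjusted over 15583 genes at a threshold of 0.05. Adjusted p values are from that fit, and its standard errors come from the F statistic. CPM use TMM-scaled totals, and centred log2 CPM a prior count of 2. A count of 3 corresponds to 0.0783 to 0.0929 CPM; p values cover the spread between 3 mice per group. Replicate numbers are names in accession order. The fit was also run on simulated counts, with an outcome not reported here. A gene that did not pass the test is not shown to be unchanged. Motifs were searched in RefSeq promoter windows (GRCm38.p6). Alternatives used DESeq2 1.42.0, limma 3.58.1 and the other settings of the closing section.

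The 10 members and all lists were chosen with earlier results of these data known. All members were named. In each list, members past the threshold or, with none, the 3 of smallest p were named (1 gene of the upstream activators is not reported here), and the 5 genes with the highest Pearson r with the NR4A mean.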

Additional observations from a re-analysis of the deposited data

How the results depend on the processing

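No member passed an adjusted p of 0.05 under any of 16 alternatives, and the lowest adjusted p of a member was 0.104 (Ier5 without VDR knockout replicate 1). The number of genes called was 0 with edgeR, against 109 with the DESeq2 Wald test, 29 without a low-count filter, 4 with DESeq2 size factors in edgeR and 4 with limma-voom with sample quality weights; it was 0 to 24 when single libraries were left out, with 24 without VDR knockout replicate 1 and 6 without VDR knockout replicate 2. Genes with an unadjusted p below 0.05 numbered 1159 with edgeR, 1313 with DESeq2, and 594 to 1940 with single libraries left out. The number of members with a lower estimate was 8 to 10, and their median log2 fold change -0.93 to -0.58, over the 16 alternatives. Nfkbia turned to 0.062 with library totals, 0.059 with limma on log2(FPKM + 0.1) and 0.057 on log2(FPKM + 1), and ranged from -0.11 to 0.033 with single libraries left out; with library totals the median of all genes was 0.12. Dusp6 ranged from -0.14 to 0.22 with single libraries left out. Over the alternatives, list medians ranged from -0.13 to 0.027 for other MAP kinase feedback regulators, -0.21 to 0.0017 for MAP kinases and -0.44 to -0.13 for NF-kappa B. They ranged from -0.15 to -0.0051 for decay factors, -0.77 to -0.48 for the IER and CSRNP list and -1.06 to -0.53 for AP-1, EGR and Myc factors. The ranges were -0.21 to 0.052 for upstream activators, -0.37 to -0.057 for NR4A partners and -2.74 to 0.44 for AU-rich messages. The cause of these shifts was not tested. The other 8 members kept a lower estimate in all 16. Dusp6, with 232 to 350 reads per library, and Ier3, with 220 to 659, were the least deeply covered. No paired analysis was possible because the labels give the groups no shared replicate numbers.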
